A study of Mus musculus with 10 samples.

Results

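Apolipoproteins are the proteins that coat and steer the lipid particles of the blood. The 10 genes described here are Apoa1, Apoa2, Apoa4, Apoa5, Apob, Apoc1, Apoc2, Apoc3, Apoe and Apom, of 19505 genes named on the array. They were chosen by their membership of this family, with earlier results of these data known, and were matched by gene symbol. Of the 10 genes, 9 had 1 probe set each, and a probe set of Apoc2 was not analysed here. Livers came from 10 male C57BL/6N mice, labelled as 8 weeks old, and each was hybridised to its own Clariom S Mouse Array. The iso-α-acids diet group (5 mice, called iso-fed below) ate AIN-93G diet with 0.5% (w/w) iso-α-acids, the bitter acids of beer, for 1 week. The control diet group (5 mice) was pair-fed the same diet without them, so that intake was matched. All 10 mice had an intraperitoneal injection of 200 mg/kg acetaldehyde 5 h before the liver was taken, so no liver here was free of acetaldehyde. The mice were picked by the authors as average individuals on serum enzyme values.

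The liver makes most plasma apolipoproteins. Apob is the scaffold of very low density lipoprotein (VLDL) particles, which carry triglyceride out of the liver, and Apoa1 and Apoa2 are the main proteins of high density lipoprotein (HDL). Lipoprotein lipase then releases fatty acids from the triglyceride, with Apoc2 as its cofactor, Apoc3 as a brake and Apoa5 as a helper, and Apoe serves as the ligand by which remnants are taken up. In mice Apoa4, a protein of chylomicrons and HDL, is made in the liver as well as in the intestine. In RefSeq, 4 of these genes lie side by side on chromosome 9 in the order Apoa1, Apoc3, Apoa4 and Apoa5, and Apoc2, Apoc1 and Apoe lie together on chromosome 7.

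The promoters of the chromosome 9 cluster are shown because both genes that passed the test of the diets, Apoa4 and Apoc3, lie in it. The RefSeq promoter table (GRCm38.p6) held 8 of the 10 genes, all but Apoc1 and Apoc3. Each line gives the 250 bases before the start, on the plus strand, at chr9:46228380-46228629 for Apoa1, chr9:46240594-46240843 for Apoa4 and chr9:46268358-46268607 for Apoa5. Capitals mark matches to CAAAGTNCA, the form that Hnf4a and related nuclear receptors bind, or to TATAAA, the TATA box.
Apoa1: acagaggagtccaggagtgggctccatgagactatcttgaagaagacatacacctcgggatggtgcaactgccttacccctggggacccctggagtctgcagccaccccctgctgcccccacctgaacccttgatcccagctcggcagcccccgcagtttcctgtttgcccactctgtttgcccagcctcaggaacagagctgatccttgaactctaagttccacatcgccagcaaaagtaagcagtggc
Apoa4: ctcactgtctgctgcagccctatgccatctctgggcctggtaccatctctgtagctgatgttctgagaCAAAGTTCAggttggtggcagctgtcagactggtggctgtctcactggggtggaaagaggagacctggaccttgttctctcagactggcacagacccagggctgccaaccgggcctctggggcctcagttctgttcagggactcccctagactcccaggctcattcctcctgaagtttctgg
Apoa5: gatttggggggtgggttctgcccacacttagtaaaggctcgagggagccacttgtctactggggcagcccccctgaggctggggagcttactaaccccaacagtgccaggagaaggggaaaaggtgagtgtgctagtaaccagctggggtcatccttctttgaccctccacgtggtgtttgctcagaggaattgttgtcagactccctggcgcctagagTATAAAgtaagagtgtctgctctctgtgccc
Apoa4 held 1 match to CAAAGTNCA, 182 bases before the start, and Apoa5 held 1 TATAAA, 31 bases before the start. Over 32851 promoters of this length, searched on both strands, 1.19% held CAAAGTNCA and 12.4% held TATAAA. The nuclear receptor core motif AGGTCA (14.0% of promoters) and the core of the antioxidant response element, TGACNNNGC (10.2%), matched in none of the 3 windows. The 2 matches did not overlap each other or any other match. A match is a run of letters only, and binding was not measured.

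The values are log2 levels of probe sets, summarized by the authors with qFARMS, which gives a nearly constant value to a probe set whose probes do not vary together. Of the 9 genes measured, 4 were flat (SD over the 10 arrays under 0.001) and 5 varied. The split was selected on that SD, which contains any difference between the diets, so the share of varying genes that differed is no support for a difference. The highest SD of a flat gene was 1.05e-05 and the lowest of a varying one was 0.0239, for Apob. Over the whole array 19767 of 22206 probe sets (89.0%) were flat. Iso-fed replicate 1 stood apart from its group. Its root mean square difference from each of the other 4 was 0.62 to 0.65 on the log2 scale over the 2439 varying probe sets, against 0.129 to 0.169 among those 4 and 0.175 to 0.365 between control mice. Values without it are given for the listed apolipoproteins. For other genes whose difference is printed, they are given where leaving it out turned a sign, changed a call or moved the difference by over 1.5 times.

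Of the 9 genes, 2 passed limma (adjusted p under 0.05 over all probe sets) and both were lower in the iso-fed mice, Apoa4 and Apoc3. None was called higher, and 0 of 9 had an unadjusted p under 0.05 in that direction. Over all probe sets limma called 0.171% lower and 0.59% higher, and among varying probe sets it called 1.07% lower. Fitted on the varying probe sets alone, limma called the same 2 of 5 genes lower, against 6.89% of those probe sets. All 5 varying genes had a negative difference, with a median of -0.15, against a median of 0.0073 over all varying probe sets. The genes were picked with results known, so these shares describe them and do not test the family.

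Among the proteins of chylomicrons and HDL, Apoa4 had the largest difference of the 9 genes. In the control diet group its log2 value was 10.44, 10.28, 10.85, 10.42 and 10.57 in replicates 1 to 5 (10.51 ± 0.212, SD, n = 5). In the iso-fed mice it was 9.43, 9.78, 9.25, 9.77 and 9.75 (9.60 ± 0.241, SD, n = 5). All 5 iso-fed values lay below the lowest control value, and replicates 1 and 3 were the lowest. Apoa4 fell by 47.0% (log2 difference -0.92, standard error (SE) 0.14, 95% confidence interval -1.24 to -0.60, adjusted p = 0.0304 from limma). Without iso-fed replicate 1 the log2 difference was -0.88 (adjusted p = 0.0338 from limma). When each of the 10 mice was left out in turn, the difference stayed between -0.97 and -0.83, but the adjusted p ran from 0.0338 to 0.0886 and passed only without that replicate 1. In bulk liver, fewer cells that make a transcript and less of it per cell cannot be told apart.

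**Figure D1:**
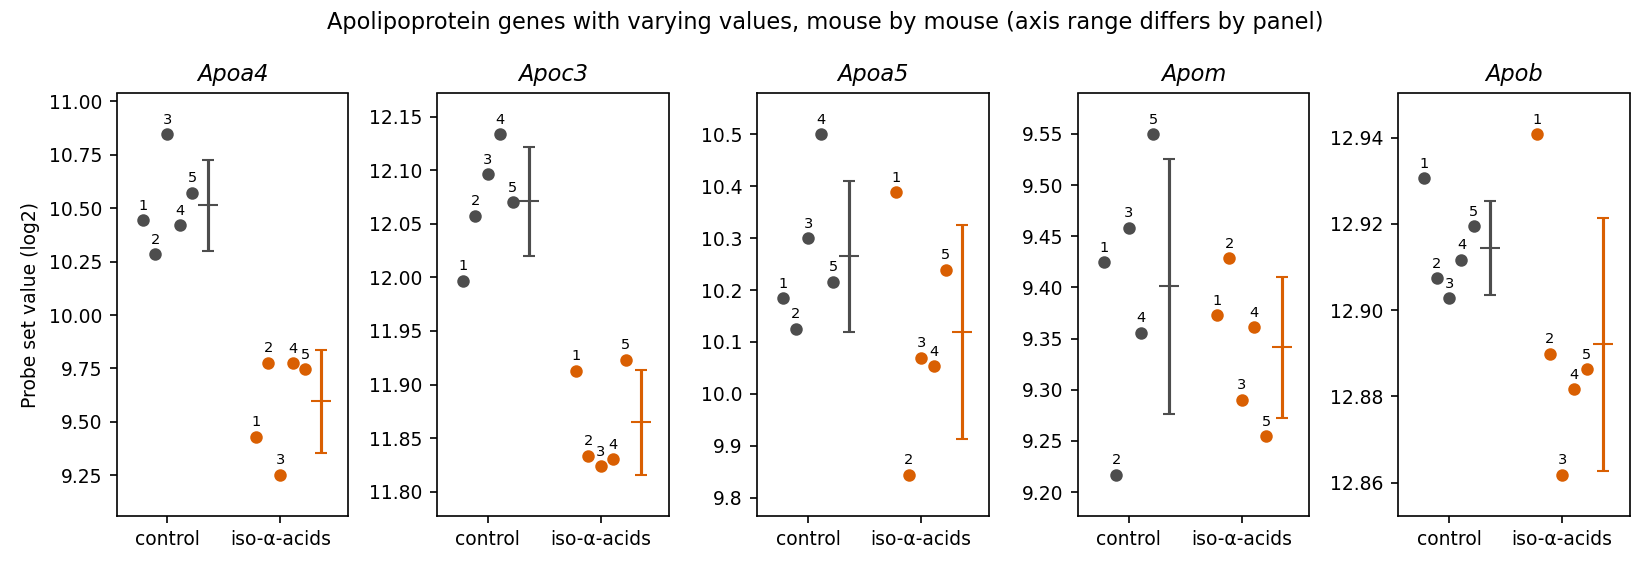
Log2 probe set value (vertical axis, with its own range in each panel) of the 5 varying apolipoprotein genes in each mouse of the control and iso-fed groups. Points are mice with their replicate number, and bars are the mean and SD (n = 5). The groups are apart for Apoa4 and Apoc3 and overlap for Apoa5, Apom and Apob.

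Apoc3, the inhibitor of lipoprotein lipase and of remnant uptake, showed a smaller difference, with little spread between mice. Its log2 value was 12.00, 12.06, 12.10, 12.13 and 12.07 in control replicates 1 to 5 (12.07 ± 0.0505, SD, n = 5). It was 11.91, 11.83, 11.82, 11.83 and 11.92 in the iso-fed mice (11.86 ± 0.0489, SD, n = 5). Again all 5 lay below every control mouse, with replicates 1 and 5 nearest to the controls. Apoc3 fell by 13.3% (log2 difference -0.21, SE 0.031, 95% confidence interval -0.28 to -0.14, adjusted p = 0.0279 from limma). Without iso-fed replicate 1 the log2 difference was -0.22 (adjusted p = 0.0180 from limma). With each mouse left out, the difference stayed between -0.22 and -0.19 and the adjusted p ran from 0.0180 to 0.0909, passing in 3 of 10 fits (without control replicate 1 or iso-fed replicate 1 or 5). Groups that did not overlap, with the iso-α-acids diet lower, were found for 7.3% of varying probe sets, and for 12.1% with it higher.

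Markers of Kupffer cells, the macrophages of the liver, had lower values in the iso-fed mice, beside the fall of Apoa4 and Apoc3. Of 7 markers, 5 varied and all 5 had a negative difference, from -0.66 for Clec4f (adjusted p = 0.0683) to -0.32 for Adgre1 (adjusted p = 0.126), and all but Cd5l did not overlap between diets. None passed limma over all probe sets, and the other 2, Marco and Timd4, were flat. On varying probe sets only, all 5 passed (adjusted p from 0.00624 to 0.0324 from limma), and rank products called all 5 lower. Of all varying probe sets, 6.89% were called lower by that limma fit and 28.4% by rank products. Groups that did not overlap, with the iso-α-acids diet lower, made up 7.3% of them. The log2 of the summed level of the 7 markers lay between 10.93 and 11.38 in the control mice and between 10.52 and 10.82 in the iso-fed mice. Macrophages make Apoe and Apoc1, both flat here. Fewer Kupffer cells and less marker transcript per cell cannot be told apart, and a link to Apoa4 and Apoc3 was not tested. The same sum over 7 hepatocyte markers, 4 of them flat, was 15.74 to 15.78 in the control mice and 15.73 to 15.85 in the iso-fed mice. Of the 3 that varied, Cyp2e1 was higher in all 5 iso-fed mice than in any control mouse, as were 12.1% of varying probe sets. The differences were 0.19 for Cyp2e1, -0.16 for Hpx and -0.062 for Fgb, and none passed limma. Without iso-fed replicate 1 these were 0.13, -0.25 and -0.11. Of 5 enterocyte markers 4 were flat, with means from 5.76 for Sis to 7.13 for Vil1. Fabp2, the one that varied, was brighter (9.38 in the control mice), so its value need not follow enterocytes. Its difference was 0.28 (adjusted p = 0.870 from limma), and 0.55 without iso-fed replicate 1. Rank products called Fabp2 and Cyp2e1 higher and Hpx and Fgb lower, in a test that called 33.5% of varying probe sets higher. Markers of lymphocytes, neutrophils and pancreatic acinar cells were all flat. Lists for endothelial cells, stellate cells and cholangiocytes had 2, 1 and 1 varying markers, none of which passed limma. Rank products called the 2 endothelial ones, Lyve1 and Kdr, lower.

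Apoa5, which aids lipolysis by lipoprotein lipase, lies next to Apoa4. Its log2 value was 10.18, 10.13, 10.30, 10.50 and 10.22 in control replicates 1 to 5. It was 10.39, 9.84, 10.07, 10.05 and 10.24 in the iso-fed mice. The groups overlapped, since replicate 1 lay above 4 of the control mice and replicate 5 above 3 of them. The log2 difference was -0.15 (SE 0.11, 95% confidence interval -0.40 to 0.11, adjusted p = 0.758 from limma), and -0.21 without iso-fed replicate 1 (adjusted p = 0.457). It was -0.078 without iso-fed replicate 2 and -0.088 without control replicate 4. Rank products, computed here on the same values, called Apoa5 lower as well (FDR = 0.0225), so that it called 3 of the 9 genes lower. That test called 3.19% of all probe sets and 28.4% of varying ones lower, and 3.72% of all and 33.5% of varying probe sets higher.

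Apob, the structural protein of VLDL, varied least of the 5. Its log2 value was 12.931, 12.907, 12.903, 12.912 and 12.920 in control replicates 1 to 5. It was 12.941, 12.890, 12.862, 12.882 and 12.886 in the iso-fed mice. Of the iso-fed mice 4 lay below all control mice and replicate 1 lay above all of them. The log2 difference was -0.022 (SE 0.0137, 95% confidence interval -0.054 to 0.0091, adjusted p = 0.683 from limma). Without iso-fed replicate 1 it was -0.034 (adjusted p = 0.0822), without iso-fed replicate 3 it was -0.015, and after quantile normalizing the arrays again it was -0.0035. The interval over all 10 mice runs from a difference of -3.65% to one of 0.63%. It holds for the probe set value, which lay near the top of the array's values (13.37). How such values follow the transcript level was not tested.

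Apom, a minor HDL protein that carries sphingosine 1-phosphate, did not separate the groups. Its log2 value was 9.42, 9.22, 9.46, 9.36 and 9.55 in control replicates 1 to 5. It was 9.37, 9.43, 9.29, 9.36 and 9.25 in the iso-fed mice. The iso-fed values lay inside the range of the controls, whose replicate 2 was the lowest mouse of all. The log2 difference was -0.059 (SE 0.062, 95% confidence interval -0.20 to 0.083, adjusted p = 0.850 from limma), and -0.067 without iso-fed replicate 1. It ran from -0.11 without control replicate 2 to -0.022 without control replicate 5, and was -0.038 without iso-fed replicate 5.

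The 4 flat genes were Apoa1 and Apoa2, the main HDL proteins, Apoe, the ligand of remnant receptors, and Apoc1, a small exchangeable protein of VLDL and HDL. Their log2 values were 13.16 for Apoa1, 13.09 for Apoa2, 13.21 for Apoe and 12.39 for Apoc1 in all 10 mice, and the largest difference between group means was 9.22e-06 in size. Such values show neither a change nor its absence. Flatness was not confined to dim probe sets, since 34 of the 139 probe sets with a mean of at least 12 (24.5%) and 12 of the 22 with a mean of at least 13 (54.5%) were flat.

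**Figure D2:**
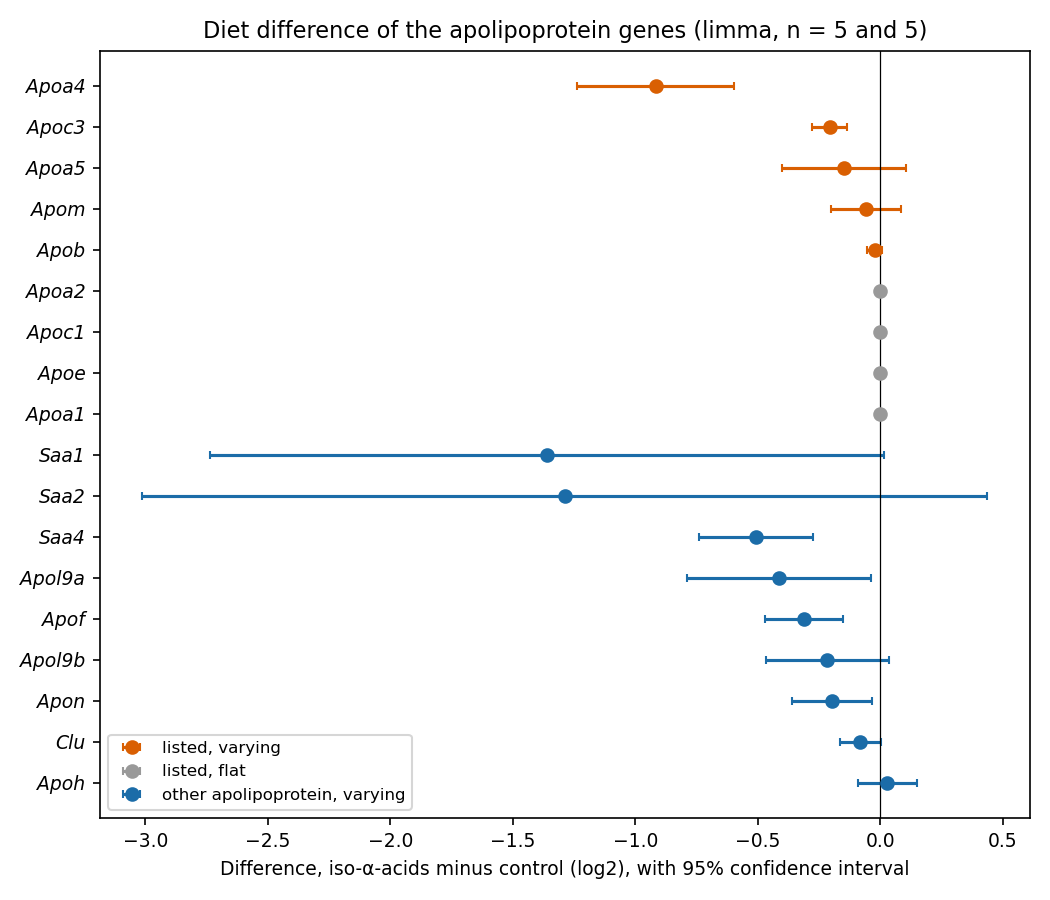
Log2 difference, iso-α-acids minus control diet (horizontal axis), with limma's 95% confidence interval, for the 9 listed genes and 9 other varying apolipoprotein genes. The intervals of Apoa4, Apoc3, Saa4, Apof, Apon and Apol9a lie below 0, and of these Apoa4 and Apoc3 passed after adjustment over all probe sets; the flat genes sit at 0 because their values hold no variation.

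Within each mouse, the value of Apoa4 was also set against that of the other varying genes. These differences carry no meaning as ratios of transcripts, since each probe set has its own scale. They serve only to describe the values mouse by mouse. Apoa4 minus Apoc3 lay between -1.77 and -1.25 in the control mice and between -2.57 and -2.06 in the iso-fed mice, without overlap. Apoa4 minus Apob and Apoa4 minus Apom did not overlap either, with mean shifts of -0.89 and -0.86. Apoa4 minus Apoa5 did overlap, from -0.080 to 0.54 in the control mice and from -0.96 to -0.066 in the iso-fed mice. The 2 neighbours of Apoa4 in the cluster that varied had smaller mean differences than Apoa4, as had Apob and Apom. The shifts thus largely repeat the difference of Apoa4 itself, and no test of them was made.

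**Figure D3:**
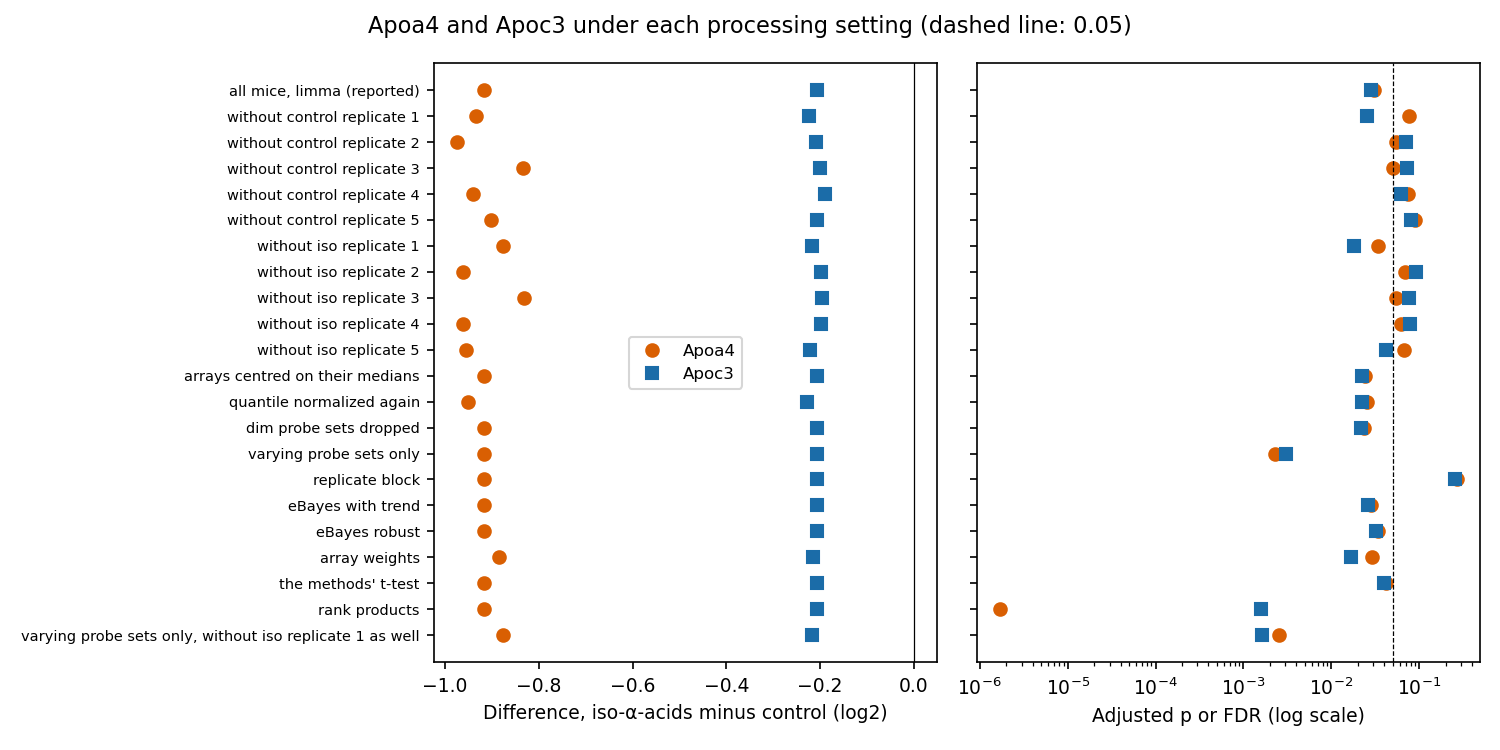
Log2 difference of Apoa4 and Apoc3 (left) and its adjusted p or FDR (right, log axis, dashed line at 0.05) with all mice and under each of the 21 other settings. The differences keep their sign and nearly their size, from -0.97 to -0.83 for Apoa4 and from -0.23 to -0.19 for Apoc3, while most fits without 1 mouse and the fit with a replicate block lie to the right of the line.

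Further apolipoprotein genes were taken from a list of 21, of which 20 had a probe set and 9 varied. None passed limma. At an unadjusted p under 0.05 limma had 4 lower (Saa4, Apof, Apon and Apol9a) and 0 higher, where 14.6% of varying probe sets were lower and 22.6% higher at that level. Rank products called 8 lower, a test that called 28.4% of varying probe sets lower. Of the 9 that varied, 8 had a negative difference and the median was -0.31. The exception, Apoh, had 0.030 with all mice and -0.021 without iso-fed replicate 1. Saa4, a constitutive serum amyloid A protein of HDL, lay between 12.21 and 12.55 in the control mice and between 11.69 and 12.18 in the iso-fed mice, without overlap. Its log2 difference was -0.51 (SE 0.10, adjusted p = 0.0840 from limma), and without iso-fed replicate 1 it was -0.58 and passed (adjusted p = 0.0129). Saa1 and Saa2, acute phase proteins that replace Apoa1 on HDL in inflammation, had the largest differences, -1.36 (SE 0.60, adjusted p = 0.515) and -1.29 (SE 0.75, adjusted p = 0.661, or -0.79 without control replicate 3). They ranged from 8.40 to 10.86 and from 8.08 to 11.47 among the control mice alone, where replicates 3 and 5 were high, and the pair are close copies whose probes may not tell them apart. Apof, a lipid transfer inhibitor in human plasma, was named, like Apon and Apol9a, after its values were seen. It lay between 11.83 and 12.07 in the control mice and between 11.46 and 11.76 in the iso-fed mice (log2 difference -0.31, SE 0.069, adjusted p = 0.119 from limma). Apon (-0.20) and Apol9a (-0.41) overlapped between diets, and Apol9a has a close copy, Apol9b (-0.22). Without iso-fed replicate 1 Apon was at -0.25 and passed (adjusted p = 0.0381 from limma), and Apol9b was at -0.14.

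Genes that assemble, remodel and take up the particles were taken from 3 lists with 41 genes, of which 35 had a probe set and 21 varied. None passed limma in either direction. At an unadjusted p under 0.05 limma had 2 of the varying genes lower (Apobec1 and Dgat2) and 3 higher (Pltp, Angptl4 and Lpl). At that level 14.6% of all varying probe sets were lower and 22.6% higher. Rank products called 4 lower (Apobec1, Dgat2, Angptl8 and Scarb1) and 7 higher, against 28.4% and 33.5% of varying probe sets. Among the genes of assembly, Apobec1, the enzyme that edits Apob mRNA, had a difference of -0.50 (SE 0.16, adjusted p = 0.323) with no overlap between diets. Dgat2, which makes triglyceride for VLDL, had -0.18 (SE 0.046, adjusted p = 0.181). Mttp, the transfer protein that loads lipid onto Apob, was at 0.053 (adjusted p = 0.948), and at 0.15 without iso-fed replicate 1. Sort1, a sorting receptor that binds Apob, had 0.24 with all mice (adjusted p = 0.722), and 0.39 without iso-fed replicate 1 (adjusted p = 0.0280 from limma).

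Among the lipases, transfer proteins and inhibitors, Pltp, the phospholipid transfer protein of HDL, had the largest difference. It lay between 8.68 and 9.02 in the control mice, between 10.26 and 10.39 in iso-fed replicates 2 to 5, and at 8.48 in iso-fed replicate 1. The log2 difference was 1.08 over all mice (SE 0.37, adjusted p = 0.346 from limma) and 1.45 without that mouse (adjusted p = 0.000106). Thus 4 of 5 mice were above and 1 was below every control mouse. Angptl8 and Angptl4, which restrain lipoprotein lipase, had differences of opposite sign, -0.70 (SE 0.31, adjusted p = 0.518) and 0.63 (SE 0.22, adjusted p = 0.376), and both overlapped between diets. Among receptors, Scarb1, the HDL receptor, lay between 9.64 and 9.97 in iso-fed replicates 2 to 5, below all control mice, and at 10.43 in iso-fed replicate 1, above all of them. Its log2 difference was -0.29 (adjusted p = 0.595) and -0.43 without that mouse (adjusted p = 0.0391). Sdc1, a heparan sulfate receptor for remnants (0.18, or 0.12 without control replicate 2), and Lsr, a lipolysis-stimulated receptor (-0.071, or -0.034 without iso-fed replicate 1), did not pass.

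**Figure D4:**
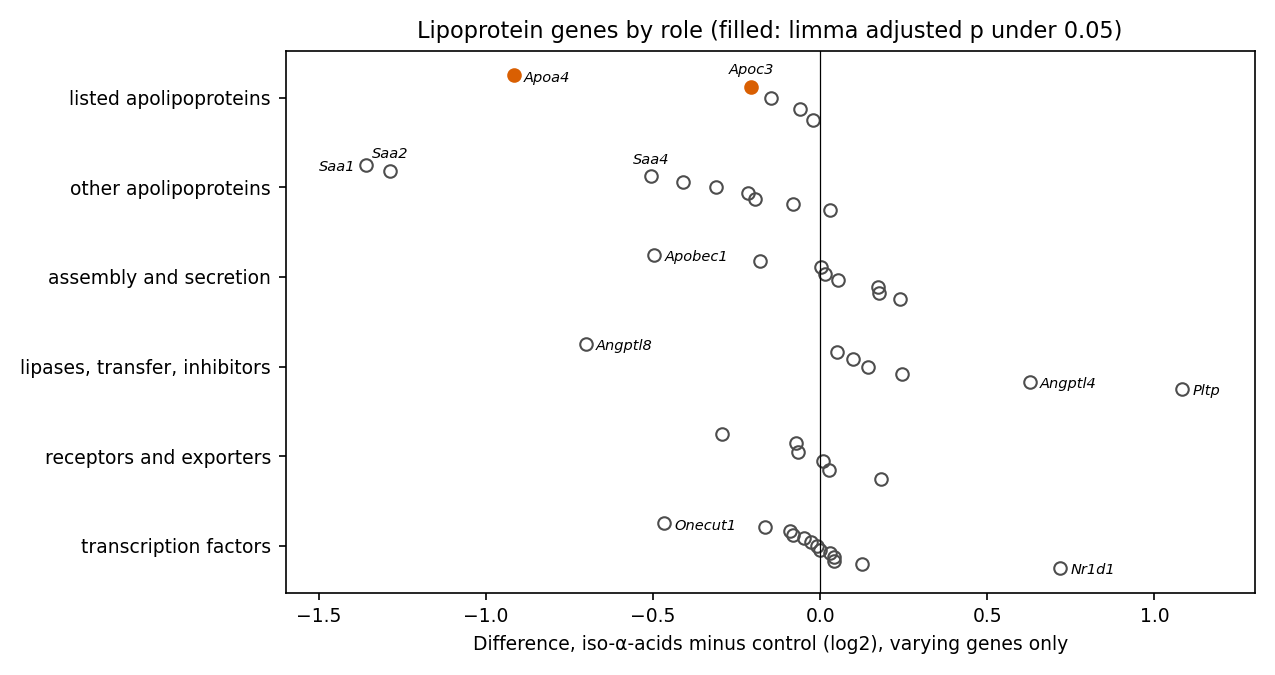
Log2 difference, iso-α-acids minus control diet (horizontal axis), of each varying gene in 6 lists by role. Each point is 1 gene, filled where limma's adjusted p was under 0.05. Apoa4 and Apoc3 are the only filled points, and Saa1, Saa2 and Pltp are farther from 0. The spread between mice is not drawn. It was wider than that of Apoa4 for Saa1 and Saa2 in each group, and Pltp had iso-fed replicate 1 below every control mouse.

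Transcription factors known to act on apolipoprotein or lipoprotein genes were taken from a list of 19, of which 17 had a probe set and 13 varied. None passed limma. At an unadjusted p under 0.05 limma had 2 lower and 0 higher. These were Nr1h3, with a difference of only -0.0021, and Rora, whose brightest of 3 probe sets was flat. Of the 13 varying genes 1 was lower and 0 higher at that level, against 14.6% and 22.6% of all varying probe sets. Rank products called 3 lower (Nr1h3, Onecut1 and Mlxipl) and 2 higher (Nr1d1 and Srebf2), against 28.4% and 33.5% of varying probe sets. The median difference of the 13 was -0.011. Ppara, a nuclear receptor that in rodents lowers Apoc3, had -0.089 (95% confidence interval -0.36 to 0.18), and Hnf4a, which drives the chromosome 9 cluster, had 0.042 (95% confidence interval -0.11 to 0.20). Creb3l3, which raises Apoa4 in mouse liver, had 0.029 (95% confidence interval -0.14 to 0.20). Without iso-fed replicate 1 the signs of Ppara (0.016) and Hnf4a (-0.017) turned and Creb3l3 was at 0.10, and none passed. The largest differences were those of Nr1d1, a clock repressor that acts on Apoc3 (0.72, adjusted p = 0.602), Onecut1 (-0.47, adjusted p = 0.898) and the carbohydrate response factor Mlxipl (-0.17, adjusted p = 0.697). With 1 mouse left out, Onecut1 ran from -0.85 (without control replicate 1) to -0.19 (without control replicate 2). It was -0.20 without control replicate 4, and -0.31, -0.25 and -0.82 without iso-fed replicates 1, 2 and 5, and Mlxipl was -0.085 without control replicate 2. These are transcript levels, and the activity of the factors was not measured.

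The profile of Apoa4 over the 10 mice was compared with that of 2167 other varying genes by the root mean square difference of their log2 deviations from the control mean. This measure picks genes that are lower in the iso-fed mice by construction. The nearest were Egfr (0.229), Gvin1 (0.254), Lyz2 (0.257), C8b (0.275) and Clec4f (0.277), against a median of 0.707. They encode a growth factor receptor, a large interferon-inducible GTPase, the lysozyme of macrophages, a complement subunit and a lectin of Kupffer cells. The other apolipoproteins were farther from Apoa4, at 0.541 for Apoc3, 0.611 for Apoa5, 0.631 for Apom and 0.665 for Apob. The deviations were not scaled, so their smaller diet differences alone would set them apart from Apoa4. Without control replicate 1 or 5, 3 of the 5 nearest genes were found again, and only 1 was when iso-fed replicate 1 was left out.

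**Figure D5:**
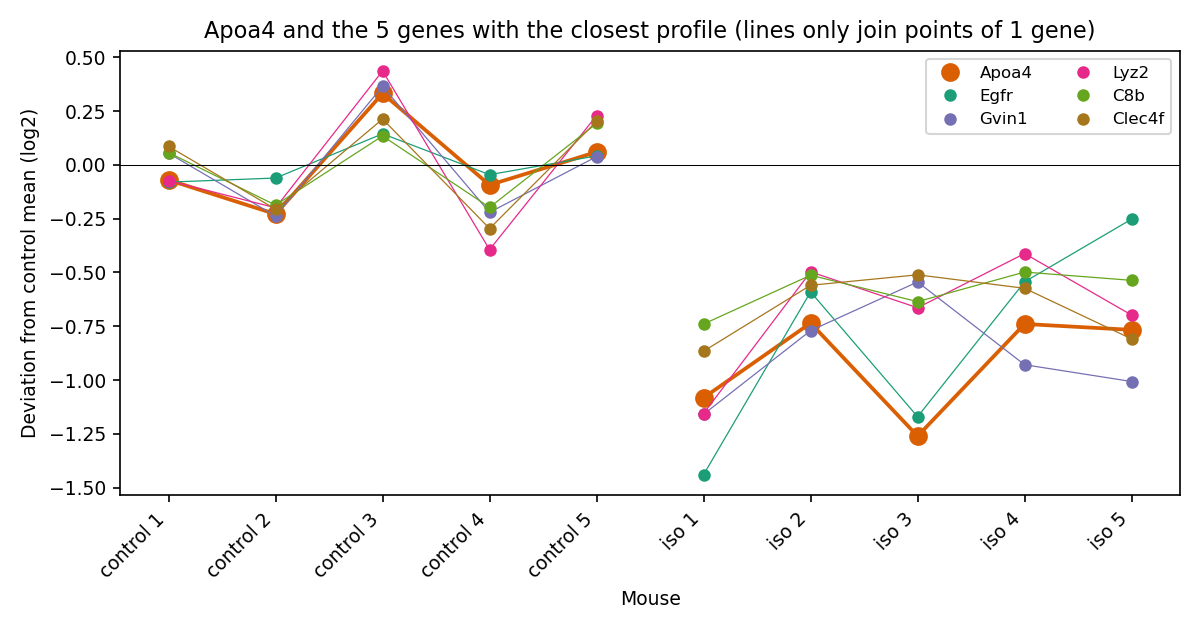
Log2 deviation from the control mean (vertical axis) of Apoa4 and the 5 genes with the closest profile in each of the 10 mice (horizontal axis). All 6 genes are below 0 in the 5 iso-fed mice, and in the controls replicate 3 is the highest for Apoa4.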

How the data were processed

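Liver RNA was hybridised with 1 mouse per array. The deposited log2 values were made by the authors by quantile normalization and probe summarization with qFARMS. The log base was read from the range of values (4.94 to 13.37), and versions and qFARMS settings are not given in the sources used here. The values were used as deposited, and neither labels nor files name a batch. Gene symbols came from the platform annotation, updated through RefSeq (19572 of 19572 identifiers found, 0 changed), and the brightest probe set stood for a gene that had several. The members, lists and the split into flat and varying probe sets were chosen with earlier results of these data known. Named genes were all members, any listed gene past the test, and up to 3 further varying genes per list with the largest difference. Other genes named in the text were added outside this rule, after their values were seen, as were Mttp, Ppara, Hnf4a and Creb3l3.

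Groups were compared over all 22206 probe sets with limma 3.58.1 in R 4.3.3 (lmFit, then eBayes with no trend and 0.348 prior degrees of freedom, two-sided, Benjamini-Hochberg adjusted p under 0.05). A run on simulated data checked beforehand that the code returned the differences put in. It held no mouse that stood apart like iso-fed replicate 1, so it does not vouch for the calls. Rank products, the authors' test, took the median over all pairings, with p from a gamma distribution and an FDR under 0.05 per direction. Other settings left out each mouse, centred or quantile normalized the arrays again, dropped the dimmest 25% of probe sets, or used varying probe sets only (also without iso-fed replicate 1), eBayes with trend or robust, array weights, the methods' t-test or a replicate block. The replicates are separate mice, and their number limits the precision.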

Additional observations from a re-analysis of the deposited data

Results flagged for a closer look

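In 40 groups of 5 values of the genes named by the rule above, the gap of the lowest or highest mouse was set against the group's range. The critical ratio was 0.71. Chance gives such a gap in about 5% of groups. Found were 3 groups, and in each the mouse was iso-fed replicate 1, the mouse that stood apart over all varying probe sets. For Pltp the ratio was 0.932, with replicate 1 at 8.48 and the other 4 between 10.26 and 10.39. For Lsr it was 0.766, with replicate 1 at 9.67 and the others between 9.83 and 9.88. For Sort1 it was 0.755, with replicate 1 at 8.05 and the others between 8.74 and 8.96. None of the listed apolipoproteins had such a gap. Genes named outside that rule were not checked, and iso-fed replicate 1 also lay apart for some of them. Mttp was at 10.24 in that mouse against 10.65 to 10.77 in the other iso-fed mice, and Hnf4a at 10.91 against 10.59 to 10.65.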

How the results depend on the processing

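Under 21 other settings the differences of Apoa4, Apoc3, Apoa5, Apob and Apom kept their sign. The count of listed apolipoproteins called lower was 2 with all mice and ran from 0 to 2 when 1 mouse was left out. It was 2 without iso-fed replicate 1, 1 (Apoc3) without control replicate 1 or iso-fed replicate 5, and 0 without each of the other 7 mice. Rank products called 3. None was called higher under any setting. The labels name no pairing of mice by replicate number. Deviations of same-numbered mice from their group means had correlations from -0.205 to 0.233, and 0 of 5 mice matched their own number best. Iso-fed replicate 1 pulls the mean of its group, so this check cannot exclude a pairing. With a replicate block 0 were called lower (adjusted p = 0.268 for Apoa4 and 0.254 for Apoc3 from limma).

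Of the other apolipoproteins, 0 were called lower with all mice, 2 on varying probe sets only (Apof and Saa4), 1 with array weights (Saa4), 8 by rank products and 5 on varying probe sets without iso-fed replicate 1 (Apof, Apon, Clu, Saa1 and Saa4). Leaving out 1 mouse gave 0 to 2, with 2 (Apon and Saa4) without that replicate 1. Lipoprotein handling genes called lower were 0 with all mice, 1 on varying probe sets (Dgat2), 4 by rank products and 3 on varying probe sets without that mouse (Apobec1, Dgat2 and Scarb1), and 0 to 1 when 1 mouse was left out, with 1 (Scarb1) without it. Those called higher were 0, 7 by rank products and 4 on varying probe sets without that mouse (Sar1b, Sort1, Pltp and Lipg), and 0 to 2 when 1 mouse was left out, with 2 (Sort1 and Pltp) without it and 1 (Lpl) without control replicate 3. Of the transcription factors, rank products called 3 lower and 2 higher, and 2 were higher on varying probe sets without that mouse (Creb3l3 and Srebf2). Rank products called 28.4% of all varying probe sets lower and 33.5% higher, and limma on varying probe sets only called 6.89% lower. The shares called with array weights or with 1 mouse left out are not given here, so those counts have no background beside them. The cause of these changes in count was not tested. The genes nearest to Apoa4 that were found again numbered 1 to 5 of 5 with 1 mouse left out.

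With 5 arrays per diet, differences as small as those of Apob and Apom were not resolved, and the flat genes Apoa1, Apoa2, Apoc1 and Apoe could not be assessed under any setting.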
